A study of Papio anubis with 25 samples.

Results

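The keratin family was described in 25 RNA sequencing libraries of 5 olive baboons (Papio anubis), as all genes of the deposited table whose symbol is KRT, a number and at most 1 letter. This rule gave 43 of 21287 genes, 25 of type I and 18 of type II. Each animal gave 1 library from each of 5 tissues, the liver, the pancreas and 3 salivary glands of the left side (parotid, submandibular, sublingual), flash frozen, with RNA taken from thin sections. All animals but baboon 5, a male, were female, the labels give no age, and no animal is labelled as treated. The series asks where amylase genes are expressed in Old World monkeys, with gland against pancreas and pancreas against liver as its stated comparisons within animals. Levels are in TPM, a transcript's share of its library corrected for transcript length, so levels of different genes can be compared within a library. TPM keeps no depth, so no counting error is given, and errors are standard deviations (SD) over 5 animals unless another basis is named.

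Keratins are the intermediate filament proteins of epithelial cells. A filament is built from pairs of 1 acidic type I and 1 basic type II chain, and epithelia are told apart by the pairs they use. Simple epithelia such as hepatocytes, acini and ducts use KRT8 with KRT18, and ducts add KRT7 and KRT19. Basal cells of stratified and glandular epithelium, myoepithelial cells among them, use KRT5 with KRT14, and the upper layers of non-cornified oral mucosa use KRT4 with KRT13. By gene order on the Panubis1.0 assembly, 24 of the 25 type I genes lay in 1 chromosomal cluster, and KRT18 lay with the 18 type II genes in the other, as the neighbour of KRT8 among named genes.

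Of the 43 keratins, 14 reached a mean of 10 TPM in at least 1 tissue and 17 a mean of 1 TPM. The 14 were 4 simple keratins (KRT7, KRT8, KRT18 and KRT19), all 4 basal keratins (KRT5, KRT14, KRT15 and KRT17), KRT4, KRT13, KRT78 and KRT80 of stratified epithelium, KRT23, and the root sheath keratin KRT28. KRT10, KRT16 and KRT25 lay between the 2 limits. The other 26 had a mean below 1 TPM in every tissue and never exceeded 2.25 TPM, the value of KRT222 in the submandibular library of baboon 2. They include the intestinal simple keratin KRT20, at no more than 0.173 TPM, the epidermal keratins KRT1 and KRT2, at no more than 0.445 and 0.528 TPM, and 15 of the 17 hair and root sheath keratins.

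**Figure D1:**
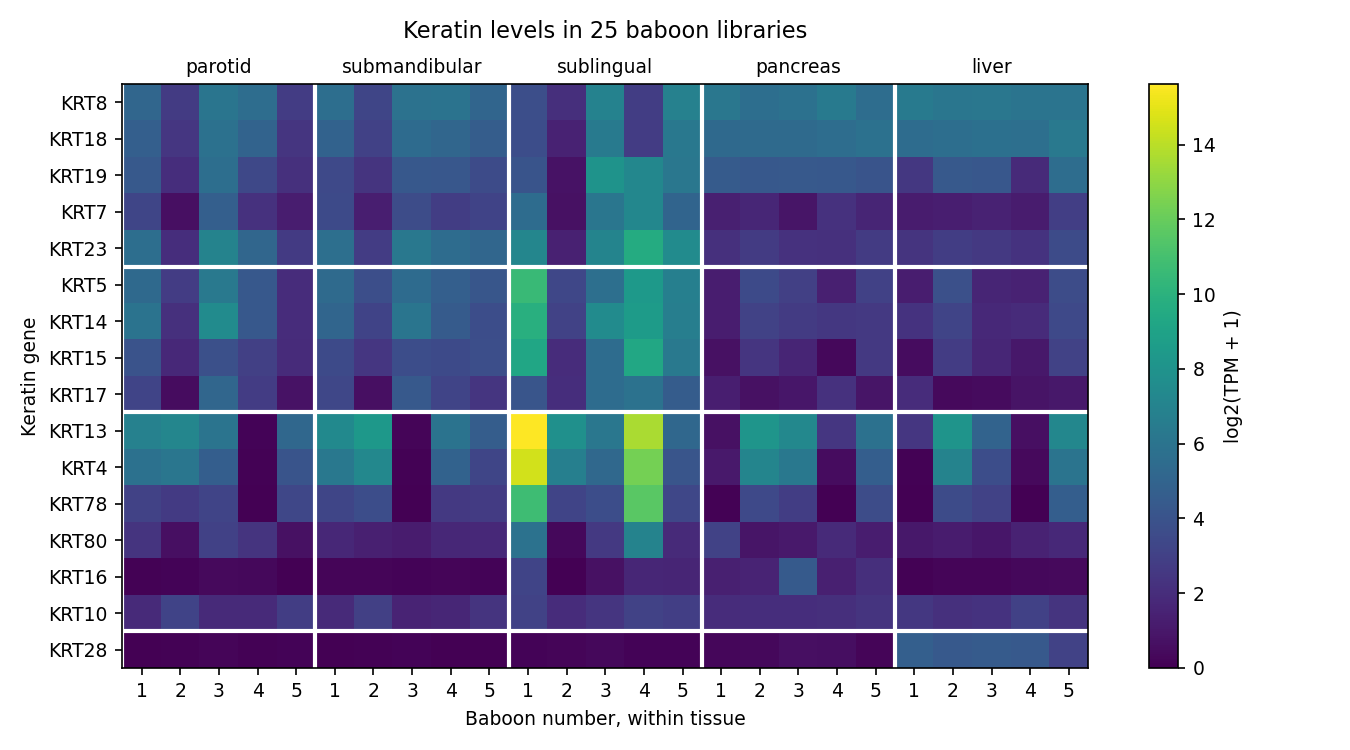
Levels of 16 keratins (rows, as log2(TPM + 1)) in 25 libraries (columns, baboons 1 to 5 within each tissue), with white lines between simple keratins and KRT23, basal, stratified and root sheath keratins. KRT13 and KRT4 are highest in the sublingual libraries of baboons 1 and 4, KRT8 and KRT18 are even across pancreas and liver, and KRT28 is seen in the 5 liver libraries.

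The sections differed in markers of other tissues, and these values stand beside the keratin levels below. Pancreatic acinar markers summed to between 54982 and 114076 TPM in pancreas and to no more than 1656 TPM elsewhere, and hepatocyte markers to at least 37626 TPM in liver and no more than 885 TPM elsewhere. Non-keratin markers of stratified squamous mucosa (7 measured of 8 listed, CRNN and SPRR3 among them) summed to 46361 TPM in sublingual gland of baboon 1, to 35955 TPM in that of baboon 4 and to between 4.20 and 434 TPM in the other 23 libraries. The sublingual library of baboon 2 had 65675 TPM of 5 skeletal muscle markers. Adipocyte markers summed to 20189 TPM in the parotid library of baboon 2, and to 2662 and 6348 TPM in the submandibular libraries of baboons 2 and 5. Lymphocyte markers summed to 737 TPM in the parotid library of baboon 5. AQP5, a water channel of salivary acini, was between 2.25 and 5.40 TPM in the parotid libraries of baboons 2 and 5, the submandibular library of baboon 2 and the sublingual libraries of baboons 2 and 4, a level at which liver and pancreas also stood (1.98 to 4.52 TPM). In these bulk libraries fewer cells of a type and less RNA per cell cannot be told apart.

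Keratins as a whole took between 0.0101% and 0.112% of a library in 23 of the 25 libraries, and 7.97% (baboon 1) and 2.36% (baboon 4) in 2 sublingual libraries. Type I and type II totals stayed close to each other through this range. The ratio of type I to type II TPM ran from 0.883 to 2.80 over all libraries. Its mean was 1.93 ± 0.35 in the 15 gland libraries and 1.45 ± 0.35 in the 10 libraries of liver and pancreas. These SDs are over libraries that share the same 5 animals and are not independent. Which role dominated differed more. Simple keratins made up 71.1% to 85.4% of keratin TPM in the liver and pancreas of baboons 1 and 4, the 4 libraries where their share was highest. In the sublingual library of baboon 1 simple keratins made up 0.107% and stratified keratins 95.8%.

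KRT8, the type II keratin of simple epithelia, was most even in the digestive organs. In liver it stood at 87.0, 68.0, 72.0, 64.2 and 63.8 TPM in baboons 1 to 5, and in pancreas at 72.1, 49.3, 56.9, 81.0 and 47.6 TPM. The glands spread far more widely. The parotid values were 34.6, 5.68, 67.2, 46.4 and 5.98 TPM and the submandibular values 49.8, 8.77, 58.4, 62.1 and 32.7 TPM. In sublingual gland they were 12.2, 3.22, 119, 6.00 and 114.5 TPM. The highest and the lowest of all 25 libraries were therefore both sublingual. The libraries under 10 TPM were the parotid of baboons 2 and 5, the submandibular and sublingual glands of baboon 2, which held adipocyte, lymphocyte or muscle markers, and the sublingual gland of baboon 4 with its squamous markers. The submandibular library of baboon 5, with more adipocyte marker than that of baboon 2, was at 32.7 TPM, and the part of these tissues in the KRT8 level was not tested.

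KRT18, the type I partner of KRT8, followed it in every library. The ratio of KRT8 to KRT18 TPM ran from 0.804 to 1.90 over all 25 libraries, while KRT8 itself ranged from 3.22 to 119 TPM. Its mean was 1.36 ± 0.12 in parotid, 1.49 ± 0.25 in submandibular gland, 1.35 ± 0.31 in sublingual gland, 1.39 ± 0.40 in pancreas and 1.33 ± 0.39 in liver (SD, n = 5 each). The lowest ratios were those of the liver and the pancreas of baboon 5 (0.804 and 0.841), the 2 libraries in which KRT18 exceeded KRT8. KRT18 was at 55.9 ± 13.4 TPM in liver and 45.0 ± 6.94 TPM in pancreas, and at 23.8 ± 21.1, 27.6 ± 13.5 and 35.6 ± 40.04 TPM in parotid, submandibular and sublingual gland.

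Neither gene passed the test between tissues. Tests were read from a limma model of log2(TPM + 1) with tissue and animal as terms over 14991 genes. A call needed both an adjusted p (Benjamini-Hochberg) below 0.05 and a log2 change of 1 or more in size. Pancreas differed from liver by -0.23 for KRT8 (SE 0.71, limma adjusted p = 0.892) and by -0.29 for KRT18 (SE 0.66, adjusted p = 0.839). In TPM, pancreas was the higher in 1 of 5 animals for KRT8 and in 0 of 5 for KRT18. TMM scaling between libraries turned the signs of both differences, to 0.44 and 0.37. The SEs rest on a spread shared over the 5 tissues, the wider gland groups included. Parotid differed from pancreas by -1.46 for KRT8 (SE 0.71, limma adjusted p = 0.27), being lower in 4 of 5 animals. Sublingual gland differed from pancreas by -1.46 as well (adjusted p = 0.162), lower in 3 of 5 animals. These sizes rested on a few libraries. The parotid value was -0.23 without the parotid and submandibular libraries of baboons 2 and 5 and the sublingual library of baboon 2, and the sublingual value was -0.33 without the sublingual libraries of baboons 1 and 4.

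**Figure D2:**
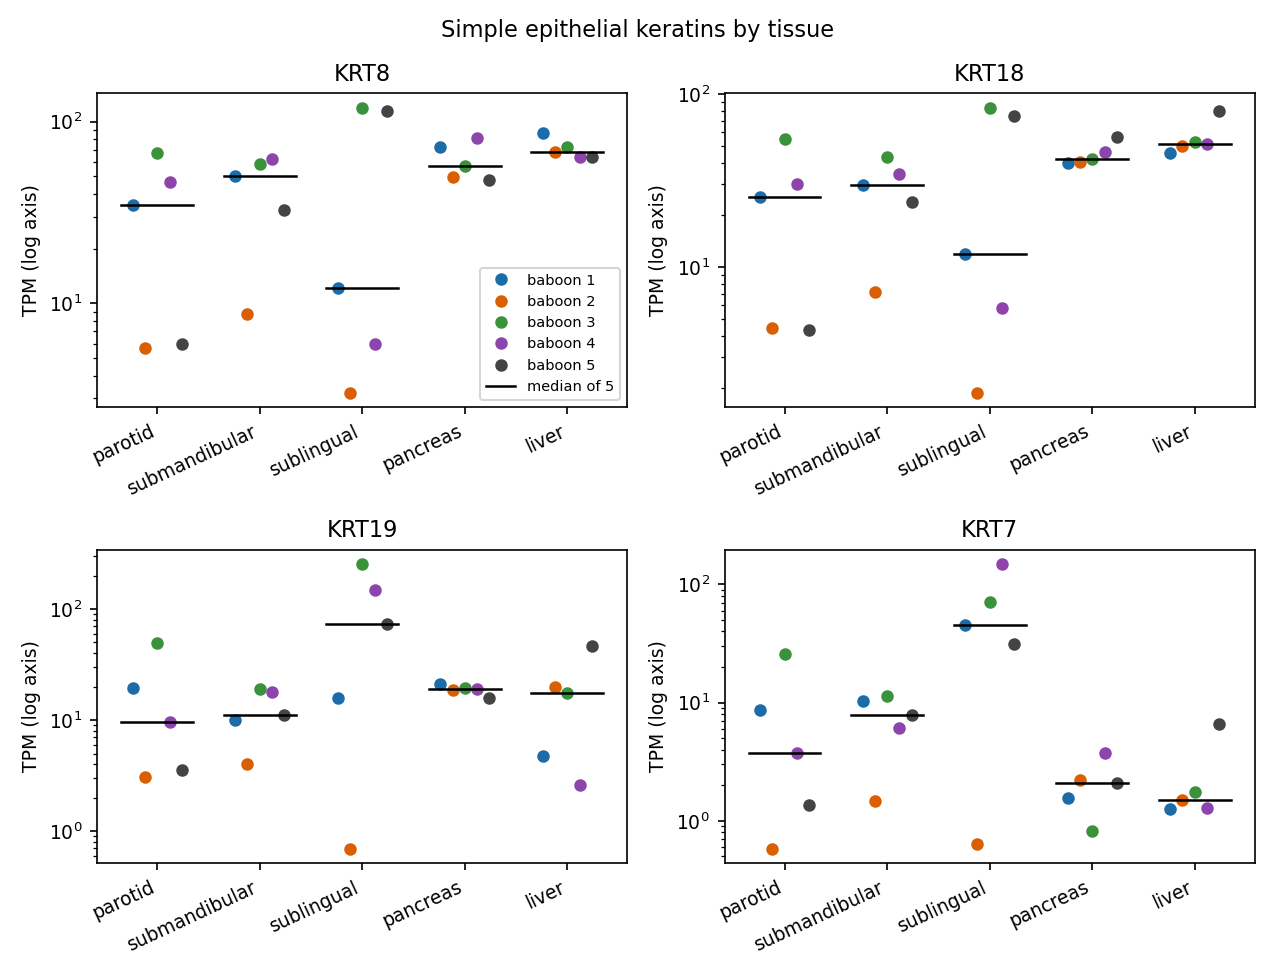
TPM (log axis) of KRT8, KRT18, KRT19 and KRT7 in each library, coloured by baboon, with the median of 5 as a line. KRT8 and KRT18 are tightly grouped in pancreas and liver, and KRT7 is at 3.78 TPM or less in every pancreas library while 4 of 5 sublingual libraries are at 31.5 TPM or more.

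The duct keratins KRT19 and KRT7 had their highest mean in sublingual gland. KRT19, a small type I keratin of ducts, measured 15.9, 0.692, 256, 149 and 72.8 TPM in sublingual gland of baboons 1 to 5. The pancreas held it at 18.8 ± 1.90 TPM (SD, n = 5), its tightest group, with a range of 15.9 to 21.2 TPM. Liver values were 4.70, 19.8, 17.7, 2.62 and 46.9 TPM, so liver spread over the levels of pancreas, parotid and submandibular gland. For KRT19 no comparison passed the limma test on all 25 libraries, and sublingual gland against pancreas gave 0.95 (SE 0.86, adjusted p = 0.43). That value ran from 0.28 without baboon 3 to 2.08 without baboon 2. It was called at 2.03 (limma adjusted p = 0.0252) without the sublingual library of baboon 2 and the parotid libraries of baboons 2 and 5, a fit that called 34.6% of all genes.

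KRT7, the type II keratin of ducts, was called between sublingual gland and pancreas. Sublingual values were 45.1, 0.639, 70.2, 149 and 31.5 TPM, and pancreas values 1.56, 2.23, 0.825, 3.78 and 2.08 TPM. Apart from baboon 2, whose library held muscle markers, every sublingual library exceeded every pancreas library. KRT7 rose by 3.37 in log2 units in sublingual gland against pancreas (SE 0.73, limma adjusted p = 0.00502), higher in 4 of 5 animals. In submandibular gland KRT7 was at 7.39 ± 3.90 TPM and in parotid at 8.005 ± 10.3 TPM, and neither difference from pancreas was called (1.32 and 0.87, limma adjusted p = 0.522 and 0.48). The sublingual call was lost without baboon 1 or without baboon 3 (adjusted p = 0.0573 and 0.0526). CFTR, a chloride channel of ducts, went the other way and was lower in sublingual gland (-1.84, limma adjusted p = 0.00152).

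KRT23, a type I keratin of glandular and other internal epithelia, was the highest keratin of the submandibular libraries of baboons 3 and 5 and of the sublingual library of baboon 5. Its sublingual values were 142, 1.71, 134, 770.5 and 187 TPM, and its pancreas values lay between 3.43 and 5.61 TPM. All sublingual libraries but that of baboon 2 were above the whole pancreas group. KRT23 rose by 4.17 in log2 units in sublingual gland against pancreas (SE 0.88, limma adjusted p = 0.00385), a call lost without baboon 4 (adjusted p = 0.057). Submandibular values were 50.3, 5.88, 76.8, 44.8 and 35.4 TPM, each above the pancreas of the same animal, and the difference of 2.69 did not pass (adjusted p = 0.101). A further fit left out the 3 libraries with the highest adipocyte, lymphocyte and muscle sums (parotid of baboons 2 and 5, sublingual of baboon 2). There KRT23 passed for submandibular gland (2.69, limma adjusted p = 0.00413) and for parotid (3.40, adjusted p = 0.00328), beside 6.65% and 4.79% of all genes called.

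All 4 basal keratins stood higher in sublingual gland than in pancreas. In sublingual gland against pancreas, 6 of the 17 tested keratins were called, all higher in sublingual gland, where 9.47% of all 14991 genes were called, 6.97% higher and 2.49% lower. They were the 4 basal keratins KRT5, KRT14, KRT15 and KRT17, with KRT7 and KRT23. The median log2 fold change was 4.61 over the 4 basal keratins beside 0.63 over all genes tested. TMM scaling moved that median of all genes to 0.10 and the same 6 keratins were called.

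KRT15, a type I keratin of basal cells, measured 603, 2.98, 45.5, 653 and 79.0 TPM in sublingual gland, baboons 1 to 5, and 0.616, 4.34, 2.10, 0.266 and 5.14 TPM in pancreas. The 2 libraries with squamous markers were highest, and the library of baboon 2 lay within the pancreas group. KRT15 rose by 4.95 in log2 units (SE 0.93, limma adjusted p = 0.0014), higher in 4 of 5 animals. KRT17, another basal type I keratin that is also induced by injury, was at 16.3, 3.08, 45.0, 59.4 and 22.7 TPM in sublingual gland and at 1.496, 0.660, 0.910, 3.72 and 0.870 TPM in pancreas. It was higher in sublingual gland in 5 of 5 animals, by 3.20 (SE 0.58, limma adjusted p = 0.000813). KRT17 and KRT15 were also the 2 keratins called when the sublingual libraries of baboons 1 and 4 were left out, at 3.15 and 2.85 (adjusted p = 0.00732 and 0.0407).

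KRT14 and KRT5, the pair of basal and myoepithelial cells, also peaked in sublingual gland, where KRT14 measured 905, 7.48, 182, 380.3 and 101 TPM and KRT5 1565, 8.97, 50.1, 350.4 and 108 TPM. In pancreas they ran from 1.41 to 7.62 TPM and from 1.33 to 10.3 TPM. Again the sublingual library of baboon 2 lay inside the pancreas range and the other 4 above it. KRT14 rose by 4.69 (SE 0.91, limma adjusted p = 0.00191) and KRT5 by 4.54 (SE 0.99, adjusted p = 0.00523). The KRT5 call was lost without baboon 1 or baboon 4 (adjusted p = 0.0777 and 0.0683). Without the sublingual libraries of baboons 1 and 4 the differences were 3.32 and 2.64 and neither was called (adjusted p = 0.0568 and 0.13). KRT7 and KRT23 were then at 2.48 and 3.09 and were not called either (adjusted p = 0.0903 and 0.0732), so 2 of the 6 calls were left, beside 3.91% of all genes. KRT14, KRT16 and KRT17 are close in sequence, and reads shared by them could be divided among them by the quantification, so the levels of each are uncertain.

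Markers of myoepithelial cells, which smooth muscle also expresses, differed between glands and pancreas too. They went with KRT14 in some libraries and not in others. Of 4 listed, ACTA2, CNN1 and MYH11 were called higher in each of the 3 glands against pancreas, by 2.70, 2.58 and 2.24 in sublingual gland. OXTR was the fourth and was listed at 0 in the sublingual libraries of baboons 3 and 4. Among all genes tested against pancreas, 6.97% were called higher for the sublingual gland, 1.41% for the parotid and 1.27% for the submandibular gland. The marker sum was 18.9 to 332 TPM in parotid, 33.9 to 390.5 TPM in submandibular gland, 32.0 to 362 TPM in sublingual gland and 7.96 to 24.7 TPM in pancreas. In parotid of baboons 4, 1 and 3 the sum was 18.9, 60.8 and 185 TPM, with KRT14 at 19.1, 61.2 and 187 TPM. In submandibular gland of baboons 4, 1 and 3 it was 33.9, 62.3 and 133 TPM, with KRT14 at 21.7, 33.7 and 67.3 TPM. Some others departed from this order. The parotid and submandibular libraries of baboon 2 had sums of 332 and 390.5 TPM, with KRT14 at 3.55 and 7.95 TPM. Those of baboon 5 had 97.2 and 210 TPM, with KRT14 at 2.96 and 12.1 TPM. The sublingual library of baboon 1 had 44.2 TPM, with KRT14 at 905 TPM. Of 3 listed markers of basal epithelium, TP63 and COL17A1 were called higher in sublingual gland against pancreas (1.88 and 2.43), and ITGB4 was not called. Of all genes, 6.97% were called higher there. TP63 averaged 1 TPM or more in sublingual gland only (4.56 TPM), so it was tested only through that gland. The part of these cells in the basal keratin differences was not tested.

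In the parotid and submandibular glands the same 4 genes lay above pancreas in most animals without passing the test. KRT14 was at 61.2, 3.55, 187, 19.1 and 2.96 TPM in parotid and at 33.7, 7.95, 67.3, 21.7 and 12.1 TPM in submandibular gland. The 2 parotid libraries at pancreas level were those with adipocyte and lymphocyte markers. KRT14 differed from pancreas by 1.96 in parotid (SE 0.91, limma adjusted p = 0.256) and by 2.07 in submandibular gland (adjusted p = 0.323), where it was higher in 5 of 5 animals. When the parotid and submandibular libraries of baboons 2 and 5 and the sublingual library of baboon 2 were left out, 4 keratins passed in parotid and 5 in submandibular gland, KRT5, KRT14, KRT17 and KRT23 in both, all higher than in pancreas, with KRT16, lower, as the fifth in submandibular gland. In that fit 8.29% (parotid) and 10.5% (submandibular gland) of all genes were called. The ratio of KRT14 to KRT5 TPM varied more than that of KRT8 to KRT18, from 0.579 to 3.63 over the 25 libraries, and its highest value was in the sublingual library of baboon 3.

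**Figure D3:**
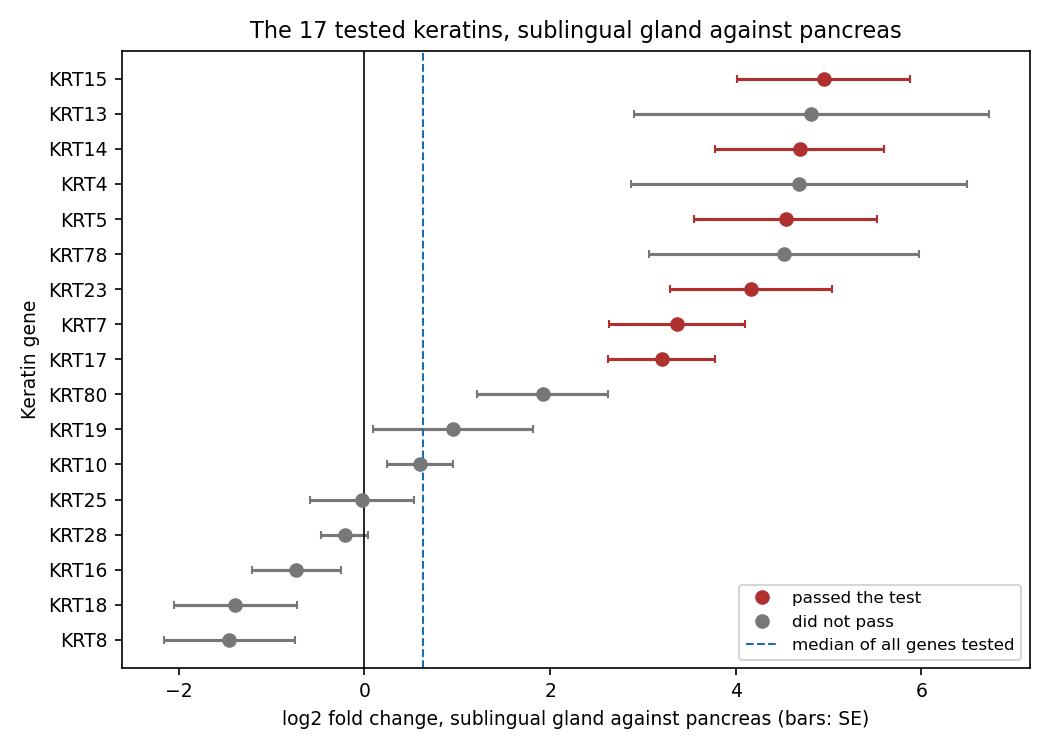
Log2 fold change of the 17 tested keratins in sublingual gland against pancreas on the log2(TPM + 1) scale, with standard errors as bars and the median of all genes as a dashed line. The 6 called keratins lie between 3.20 and 4.95 with short bars, while KRT13, KRT4 and KRT78 lie between 4.52 and 4.81 with bars of 1.46 to 1.91.

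KRT13, the type I keratin of non-cornified oral mucosa, reached the highest TPM of the family. In sublingual gland it measured 50365, 228, 72.4, 12518 and 36.4 TPM in baboons 1 to 5. In parotid it was at 117, 142, 63.9, 0.128 and 35.9 TPM, in submandibular gland at 166, 317, 0.175, 59.5 and 23.5 TPM. Levels of the same order were listed in the digestive organs. Pancreas values were 0.594, 282, 158, 4.65 and 54.7 TPM and liver values 4.49, 266, 30.5, 0.532 and 152 TPM. The 3 low sublingual libraries thus lay inside the range of pancreas and liver. KRT13 was higher in sublingual gland than in pancreas in only 2 of 5 animals, baboons 1 and 4, and the difference of 4.81 was not called (SE 1.91, limma adjusted p = 0.099). It was called without the parotid libraries of baboons 2 and 5 and the sublingual library of baboon 2 (6.08, limma adjusted p = 0.0282). Without the sublingual libraries of baboons 1 and 4 it was 0.43 (adjusted p = 0.948).

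KRT4, the type II partner of KRT13, and KRT78, a type II keratin of stratified epithelium, showed the same 2 high libraries. KRT4 reached 24203 TPM in baboon 1 and 5334 TPM in baboon 4, against 158 TPM at most in the other 23 libraries. KRT78 reached 1767 and 3109 TPM, so its order between the 2 animals was the reverse of that of KRT13 and KRT4, and 24.1 TPM at most elsewhere. In sublingual gland against pancreas KRT4 gave 4.69 (SE 1.81, limma adjusted p = 0.0923) and KRT78 4.52 (SE 1.46, adjusted p = 0.0506), and without these 2 libraries they gave 0.40 and 0.64. Without baboon 2 both were called, at 5.94 (limma adjusted p = 0.0498) and 5.72 (adjusted p = 0.0221), beside 20.5% of all genes. Over the 15 alternatives KRT4 was called in 3 and KRT78 in 6. On all 25 libraries, 3 of 7 squamous mucosa markers tested in that comparison were called, beside 9.47% of all genes (6.97% higher). All 3 were higher, CNFN (4.64), MAL (3.80) and TGM3 (3.56). KRT80, a type II keratin of many epithelia, reached 59.3 and 127 TPM in the same 2 libraries and 7.54 TPM at most elsewhere. KRT16, of regenerating and oral epithelium, was at 8.18 and 2.16 TPM there. KRT10, a type I keratin of cornifying epidermis, stayed between 1.94 and 7.85 TPM in all 25 libraries.

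The low levels of stratified keratins outside these 2 sublingual libraries were unevenly spread over animals. KRT13 was under 10 TPM in 6 libraries, the liver and pancreas of baboons 1 and 4, the parotid of baboon 4 and the submandibular gland of baboon 3, and in these 6 SPRR3, a cornified envelope protein of oral mucosa, did not exceed 0.749 TPM. In the other 19 libraries the ratio of KRT13 to KRT4 lay between 1.92 and 2.76, over a range of KRT13 from 23.5 to 50365 TPM. That ratio was 2.08 and 2.35 in the 2 high sublingual libraries and 2.05 to 2.55 in the 6 libraries of liver and pancreas.

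Ratios among stratified transcripts separated the 2 high sublingual libraries from each other. KRT78 per KRT13 was 0.0351 in the sublingual library of baboon 1 and 0.248 in that of baboon 4, and the other libraries lay between these values. In the 5 libraries of baboon 2 it was 0.0357 to 0.0416, whatever the tissue, and in the 5 libraries of baboon 5 it was 0.159 to 0.247. KRT13 per SPRR3 was 1.55 and 0.429 in the 2 high libraries, 1.34 to 1.53 in baboon 2 and 0.392 to 0.555 in baboon 5, so that libraries of baboon 5 lay on both sides of the lower value. So the libraries of baboon 2, liver and pancreas included, had the proportions of the sublingual library of baboon 1, and those of baboon 5 were nearer to the sublingual library of baboon 4. In the 4 libraries of baboon 3 with enough KRT13, KRT78 per KRT13 ran from 0.0381 in pancreas to 0.248 in liver. It was not tested whether stratified transcripts of liver, pancreas and the low gland libraries came from those tissues or from carry-over between libraries. This limits what the KRT13, KRT4, KRT78, KRT5 and KRT15 levels of these libraries mean.

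**Figure D4:**
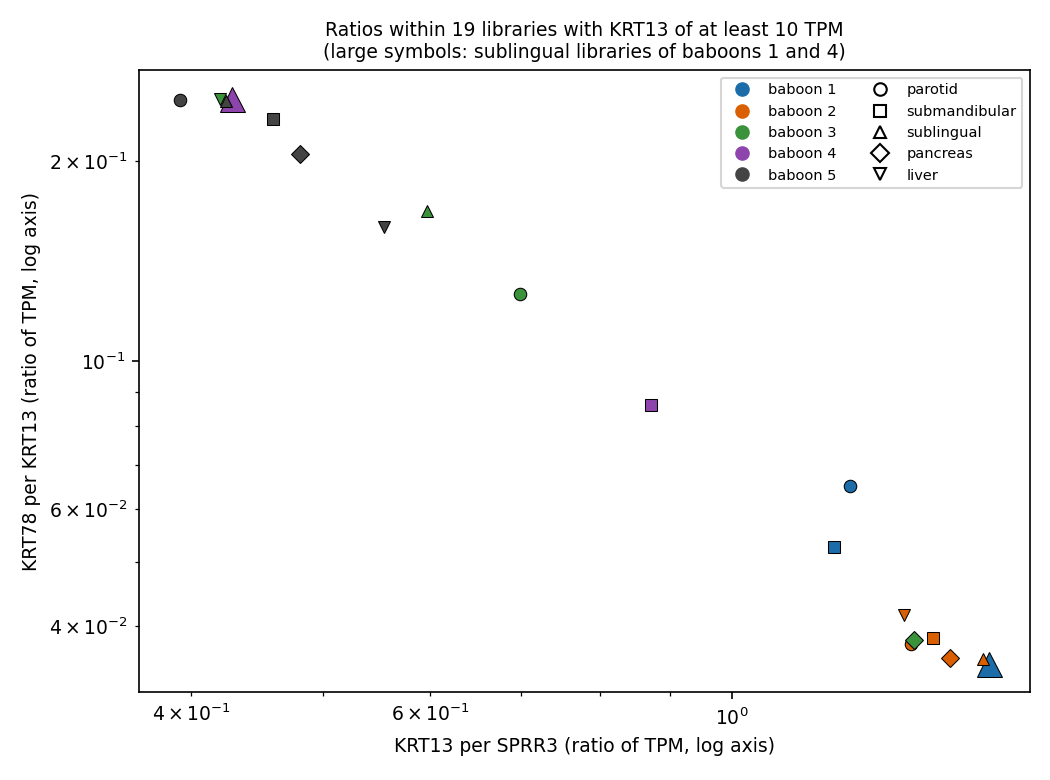
KRT78 per KRT13 against KRT13 per SPRR3 (ratios of TPM within a library, log axes) in the 19 libraries with KRT13 of at least 10 TPM, coloured by baboon and shaped by tissue. The sublingual libraries of baboons 1 and 4 (large symbols) stand near opposite ends, the 5 libraries of baboon 2 lie beside the first and the 5 of baboon 5 toward the second.

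Basal keratins were low in pancreas and liver, and among them KRT5 and KRT15 were mostly higher where KRT13 was high. KRT5 was at 10.3, 6.88 and 7.24 TPM in the pancreas of baboons 2, 3 and 5, whose KRT13 was over 50 TPM, and at 1.33 and 1.63 TPM in baboons 1 and 4. The liver showed 12.9 and 11.3 TPM in baboons 2 and 5 and 1.33 to 2.07 TPM in the other 3, baboon 3 with its KRT13 of 30.5 TPM included. KRT15 was at 4.34, 2.10 and 5.14 TPM in the pancreas of baboons 2, 3 and 5 and at 0.616 and 0.266 TPM in baboons 1 and 4. In liver KRT15 was at 5.79, 2.20 and 7.63 TPM in baboons 2, 3 and 5 and at 0.418 and 1.02 TPM in baboons 1 and 4. KRT17 showed no such order. It was highest in the pancreas of baboon 4 (3.72 TPM) and the liver of baboon 1 (2.97 TPM). In both, KRT13 was under 10 TPM. KRT14 in the pancreas of baboon 4 (4.74 TPM) was near that of baboon 5 (5.03 TPM). In liver KRT14 was at 8.12 and 10.1 TPM in baboons 2 and 5 and at 2.48 to 3.91 TPM in the other 3. KRT5 per KRT13 was 0.0311 and 0.0280 in the 2 high sublingual libraries, 0.0365 to 0.132 in the 6 liver and pancreas libraries with enough KRT13, and up to 2.95 in the gland libraries, the highest being the sublingual library of baboon 5. The part of this shared level in the pancreas values above was not tested.

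Between the glands no keratin was called. Sublingual against parotid gave 0 of 17 by limma, with 11 at an unadjusted p under 0.05 and 0.113% of all genes called (0.0934% higher, 0.02% lower). Sublingual against submandibular gland gave 0 of 17, with 10 at an unadjusted p under 0.05 and 0.0667% of all genes called (0.0467% higher, 0.02% lower). Parotid against submandibular gland gave 0 of 17, with 0 at an unadjusted p under 0.05 and 0% of all genes called. The smallest adjusted p was that of KRT15 in sublingual against parotid (3.59, SE 0.93, limma adjusted p = 0.134), where all 5 animals were higher, and KRT7 and KRT17 were also higher in 5 of 5 animals (2.50 and 1.94). Without baboon 2 the fit called 4 keratins in sublingual against parotid (KRT7, KRT14, KRT15 and KRT23) and 10 in sublingual against submandibular gland, all higher in sublingual gland. The share of all genes called in that fit rose as well, to 2.74% and 17.8%.

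Of the 17 keratins, 2 were called between pancreas and liver, where 17.5% of all genes were called, 2.86% higher and 14.6% lower. KRT28, a type I keratin of the inner root sheath of hair, was at 25.3, 19.5, 21.7, 19.998 and 7.46 TPM in the livers of baboons 1 to 5. In pancreas it was at 0.222, 0.283, 0.587, 0.490 and 0.179 TPM, and in the 15 gland libraries it lay between 0.0194 and 0.241 TPM. Every liver library was above every other library, with the lowest liver, that of baboon 5, still above the highest other value. KRT28 fell by 3.79 in pancreas against liver (SE 0.26, limma adjusted p = 3.38e-11), and its adjusted p did not exceed 3.76e-06 under any alternative run. KRT27, its neighbour in the cluster and also a root sheath keratin, was at 0.379, 0.134, 0.3005, 0.472 and 0.0673 TPM in liver and listed at 0 in the other 20 libraries, a gene picked after its values were seen and not tested because of its low level. KRT26, the next gene of the cluster, reached 0.288 TPM at most.

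KRT16 was the other called keratin, and was higher in pancreas than in liver, parotid or submandibular gland. Its pancreas values were 1.64, 1.90, 20.1, 1.61 and 3.36 TPM. No liver, parotid or submandibular library exceeded 0.325 TPM, and sublingual values were 8.18, 0.0266, 0.593, 2.16 and 2.03 TPM. The groups of pancreas and liver did not overlap, and the pancreas of baboon 3 stood apart from the other 4. KRT16 rose by 1.91 in pancreas against liver (SE 0.48, limma adjusted p = 0.00568), in 5 of 5 animals. It was the 1 keratin of 17 called in parotid against pancreas, with 3.82% of all genes called (2.4% lower), and the 1 called in submandibular gland against pancreas, with 4.08% called (2.81% lower). It fell by 1.98 in both, with limma adjusted p = 0.0157 in each, and was lower in 5 of 5 animals. Without baboon 3 these 2 values were -1.47 and -1.41 and were not called (adjusted p = 0.105 and 0.124). They were not called without baboon 5 either, nor was the submandibular value without baboon 4.

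**Figure D5:**
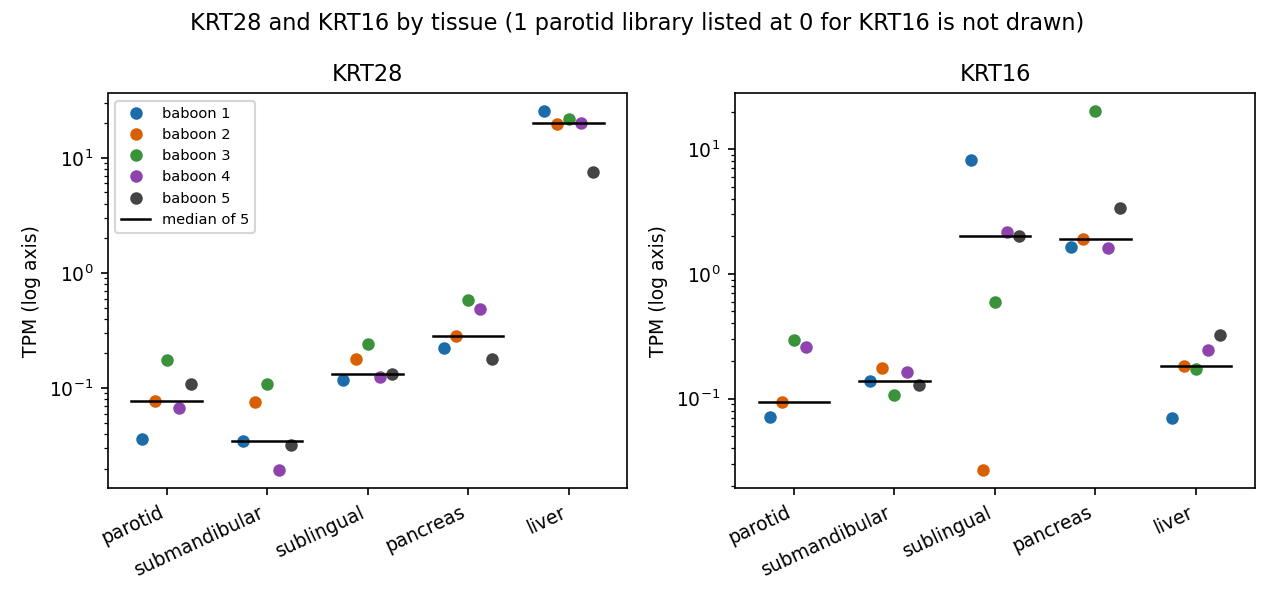
TPM (log axis) of KRT28 and KRT16 by tissue, coloured by baboon, with the median of 5 as a line. The 5 liver libraries lie at 7.46 to 25.3 TPM for KRT28, above all others, and for KRT16 the pancreas of baboon 3 stands at 20.1 TPM above the other 4.

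Genes whose products anchor keratin filaments were described from lists chosen by function. Of 13 desmosome genes, 11 were tested, and 3 were called in sublingual gland against pancreas (9.47% of all genes called, 6.97% higher), all higher. They were PERP, a membrane protein of desmosomes (2.57, limma adjusted p = 0.0242), the desmosomal cadherin DSC2 (2.14, adjusted p = 0.0403) and plakoglobin, JUP (1.86, adjusted p = 0.0408). The median was 1.41 over the 11 beside 0.63 over all genes. PKP1, DSG1, DSG3 and DSC3 averaged 1 TPM or more in sublingual gland only (35.3, 8.64, 31.6 and 2.26 TPM). They were tested only through the gland where they are high, so this median says little by itself. PERP was at 1031, 9.42, 34.2, 134 and 89.5 TPM in sublingual gland of baboons 1 to 5. The cadherins DSG1 and DSG3, of stratified epithelium, reached 40.1 and 144 TPM in the sublingual library of baboon 1 and 2.90 and 12.1 TPM in that of baboon 4, and neither was called.

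Of 12 hemidesmosome and plakin genes, 11 were measured and tested, and 4 were called in sublingual gland against pancreas, all higher, beside 6.97% of all genes, with a median of 1.29. They were periplakin, PPL (3.08, limma adjusted p = 0.0459), the hemidesmosomal collagen COL17A1 (2.43, adjusted p = 0.00441), dystonin, DST (2.28, adjusted p = 0.000188), and the laminin chain LAMA3 (1.48, adjusted p = 0.0387). DST was also called in parotid (1.40) and submandibular gland (1.27) against pancreas, the 1 gene of 11 in each, beside 3.82% and 4.08% of all genes called. Between pancreas and liver, 1 of 11 tested genes was called in the desmosome list and 1 of 11 in the hemidesmosome and plakin list. Of all genes, 17.5% were called there, 2.86% higher. The called genes were ITGB4, the integrin of hemidesmosomes, and PKP3, a desmosomal plaque protein, both higher in pancreas (2.21 and 2.13). Of 13 other intermediate filament genes 12 were measured and 6 tested, and 1 was called in sublingual gland against pancreas, SYNM (1.77), beside 9.47% of all genes. SYNM was at 58.3 TPM in the sublingual library of baboon 2. The muscle filament gene DES was at 3129 TPM in that library. VIM, of mesenchymal cells, was at 1676 and 1319 TPM in the parotid and submandibular libraries of baboon 2, where KRT8 was under 10 TPM.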

How the data were processed

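RNA of 25 tissue sections was sequenced as paired-end reads, per the labels' protocols, and the authors deposited 1 table of gene abundances in TPM, which its name and the submitters' processing notes credit to kallisto. Version, index, build and annotation are not given in the sources used here. Library totals were 999999.5 to 1000000.6 TPM. All 43 keratin symbols matched the RefSeq table of Panubis1.0, used for names and gene order.

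Log2(TPM + 1) was fitted with limma 3.58.1 (R 4.3.3, trended eBayes) on every library, by tissue and animal, over the 14991 genes that averaged 1 TPM or more in some tissue. The samples are paired because equal numbers are the same animal. Their deviations from tissue means correlated at 0.161 within animals and -0.0354 between. By comparison the mean within animals ran from -0.0461 (sublingual gland against pancreas) to 0.552 (parotid against submandibular gland). The fit was tested on simulated data with no animal effect. In sublingual gland against pancreas it recovered 46 of 100 genes changed by 2 in log2 units and 88 of 100 changed by 4. It also called 5 unchanged genes. A difference near 2 that was not called is therefore not shown to be absent. The same holds for larger differences of genes with wide spread. In sublingual gland against pancreas KRT13 (4.81, SE 1.91), KRT4 (4.69, SE 1.81) and KRT78 (4.52, SE 1.46) were not called. The p-values measure the spread left after the tissue and animal terms, shared over the 5 tissues. With 1 library per animal and tissue and no separate sampling stated, differences between animals, sections and handling cannot be told apart in it.

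The members, lists and alternatives were chosen with earlier results of these data known. Keratins averaging 10 TPM or more in some tissue were named by rule, as were called list members. Others were chosen after their values were seen. TMM scaling was unweighted. Python 3.11.15, pandas 2.3.3, numpy 2.4.6 and matplotlib 3.10.9 were used.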

Additional observations from a re-analysis of the deposited data

Results flagged for a closer look

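The highest or lowest library of a tissue stood apart in 6 of 70 groups of 5 (14 keratins in 5 tissues, log2 scale), where its gap to the next library took more than 0.71 of the range. Chance alone sets apart about 1 in 20 groups, or 3.5 of 70. In the parotid library of baboon 4, KRT13 was at 0.128 TPM and KRT78 at 0.00993 TPM, far below the other 4 parotid libraries. KRT15 was at 4.52 TPM in the submandibular library of baboon 2, the lowest of its tissue. The liver of baboon 5 stood apart for 3 genes, with KRT18 at 79.3 TPM and KRT7 at 6.57 TPM as the highest of 5 and KRT28 at 7.46 TPM as the lowest. That library also held 434 TPM of squamous markers, the most outside the 2 high sublingual libraries, and the part of this in its keratin levels was not tested.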

How the results depend on the processing

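The count of called keratins in pancreas against liver was 2 under every one of the 15 alternatives, and 0 in parotid against submandibular gland under every one. Without the replicate block the counts were 1, 1 and 7 in parotid, submandibular and sublingual gland against pancreas, and 2 in pancreas against liver. The shares of all genes called were 3.37%, 3.52%, 7.25% and 15.8%. KRT78 was added in sublingual gland, and no call was lost. Fitting only the compared tissues gave 3 in submandibular gland against pancreas, beside 5.2% of all genes called. Another fit left out the parotid libraries of baboons 2 and 5 and the sublingual library of baboon 2. Its counts were 3, 2 and 11 in parotid, submandibular and sublingual gland against pancreas. They were 3 and 9 in sublingual against parotid and submandibular gland. In the same order, 4.79%, 6.65%, 34.6%, 18.7% and 12.1% of all genes were called. With the submandibular libraries of baboons 2 and 5 also left out, chosen after seeing the data, the counts were 4, 5, 11, 9 and 11. The shares of all genes called were then 8.29%, 10.5%, 35.7%, 42.3% and 51.1%. Without the sublingual libraries of baboons 1 and 4, sublingual gland against pancreas gave 2, beside 3.91% of all genes called. Leaving out 1 animal at a time gave 0 to 2 in parotid and in submandibular gland against pancreas, and 4 to 9 in sublingual gland. It gave 0 to 4 in sublingual against parotid and 0 to 10 in sublingual against submandibular gland. The shares of all genes called ran from 2.09% to 4.24%, 2.16% to 4.63%, 2.61% to 20.5%, 0% to 2.74% and 0% to 17.8%, in the same order. KRT8 and KRT18 changed sign in pancreas against liver under TMM (0.44 and 0.37) and median-of-ratios scaling (0.48 and 0.41), and KRT8 in submandibular gland against pancreas without the 5 libraries (0.0087). The counts over all genes moved from 572 to between 315 and 1255 (parotid against pancreas), 611 to 326 to 1504 (submandibular gland), 1419 to 393 to 5117 (sublingual gland), 2623 to 1722 to 4313 (pancreas against liver), 17 to 0 to 6059 (sublingual against parotid), 10 to 0 to 7322 (sublingual against submandibular gland) and 0 to 0 to 21 (parotid against submandibular gland). The median log2 fold change of all genes was 0.45, 0.17, 0.63 and -0.44 in the first 4 comparisons, so a raw difference includes that shift. The cause of these moves was not tested. TPM holds no read counts, so depth limits cannot be given.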

Other observations

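Unnamed genes of the keratin clusters may hold further keratins. Between the outermost keratins of the 2 clusters lay 27 and 11 protein-coding genes known only by LOC numbers, which the rule leaves out, and 2 and 4 of them reached 10 TPM in a library. In human the stretch beside KRT5 holds the KRT6 genes, of oral and injured epithelium. In the baboon gene order 4 unnamed genes stood between KRT5 and KRT82, and their identity was not established. LOC101001222 reached 229 TPM in the sublingual gland of baboon 1, 4.36 TPM in that of baboon 4 and 1.78 TPM at most elsewhere. LOC101005879 reached 146, 3.30 and 0.923 TPM in the same order. Unlike KRT78, both were far higher in baboon 1 than in baboon 4.

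KRT25, a root sheath keratin, appeared in single libraries with no tissue in common. It was at 5.82 TPM in the pancreas of baboon 4, 5.33 TPM in the liver of baboon 1, 4.97 TPM in the sublingual gland of baboon 2 and 2.84 TPM in the submandibular gland of baboon 5, with 0.296 TPM as its highest value elsewhere.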
